A study of Mus musculus with 11 samples.

Results

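Lungs of mice given bleomycin through the trachea were compared with healthy lungs over all measured genes. Bleomycin is an anticancer drug that breaks DNA strands, and its delivery into the airways injures the alveolar epithelium and is followed by inflammation and scarring, which makes it a standard rodent model of lung fibrosis. In such scarring, injured epithelium and recruited macrophages release growth factors, fibroblasts turn into contractile, matrix-producing myofibroblasts, and crosslinked collagen and elastin stiffen the alveolar walls. A probe was kept when the platform annotation gives it 1 gene symbol and 2 or more of the 6 lung arrays read it above background (detection p below 0.05). Of the 45281 probes on the array, 19178 were kept, and they stood for 12105 of the 19057 genes that the array can name.

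The series holds 11 Illumina bead arrays of kidney and lung RNA, of which 6 are lungs. The healthy lung group is 3 untreated adult BALB/C mice, and the fibrotic lung group is 3 adult mice of that strain that received intratracheal bleomycin. The sources used here give no dose, no time between injection and collection and no vehicle-injected control, so injection and drug cannot be told apart. Each array is 1 mouse, per the series' design text, and the number of arrays limits the precision. The arrays are called healthy 1, 2 and 3 and fibrotic 1, 2 and 3, in accession order. Whole-lung RNA mixes all cell types, so fewer cells of a type and less RNA per cell cannot be told apart in any result that follows.

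Between 19887 and 21504 probes were above background on each array, and raw median intensities were 106.8 to 111.5 on the healthy and 123.6 to 125.1 on the fibrotic arrays. A level below is a normalised log2 intensity, and a change is the mean of the fibrotic minus the mean of the healthy levels, given with the standard error (SE) of limma's fit. Levels of different genes are not compared, since each probe has its own brightness. The fibrotic arrays correlated with each other at r = 0.978 to 0.985, the healthy ones at 0.938 to 0.983, and arrays of different groups at 0.885 to 0.919. In a principal component analysis the groups lay apart on the leading axis (64.8% of variance), and the next axis (20.8%) parted healthy 3 from healthy 1 and 2.

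Several arrays went against their labels or stood apart. All mice are labelled female, yet the Y-linked translation factor gene Eif2s3y read 9.54, 9.87 and 9.58 on the healthy arrays and 9.90, 9.88 and 4.43 on the fibrotic arrays, so that fibrotic 3 alone lacked it. Xist, the RNA that silences 1 X chromosome in female cells, was at 4.37, 4.32 and 4.32 and 5.77, 4.37 and 9.17, high on fibrotic 3 and detected at a low level on fibrotic 1. Healthy 3 carried liver transcripts: the apolipoprotein gene Apoa1 read 4.54, 4.50 and 13.95 on the healthy arrays and 4.51, 4.52 and 5.02 on the fibrotic arrays, and the summed level of 10 liver genes was 116000 there against 292 to 419 on the other 5 lungs. The summed level of 9 skeletal muscle genes was 23500 on healthy 2 and 375 to 1770 elsewhere. Heart muscle genes, which the sleeve of cardiac muscle around mouse pulmonary veins also expresses, summed to 42000, 94200 and 1700 on the healthy and 6870, 6610 and 17100 on the fibrotic arrays, lowest on healthy 3. The kidney tubule gene Umod read 9.32, 5.90 and 4.45 on the fibrotic arrays and was not above background on the healthy ones. Lung identity itself was clear on every array, since the surfactant gene Sftpc, the alveolar type 1 cell gene Ager and the club cell gene Scgb1a1 were detected on all 6.

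**Figure D1:**
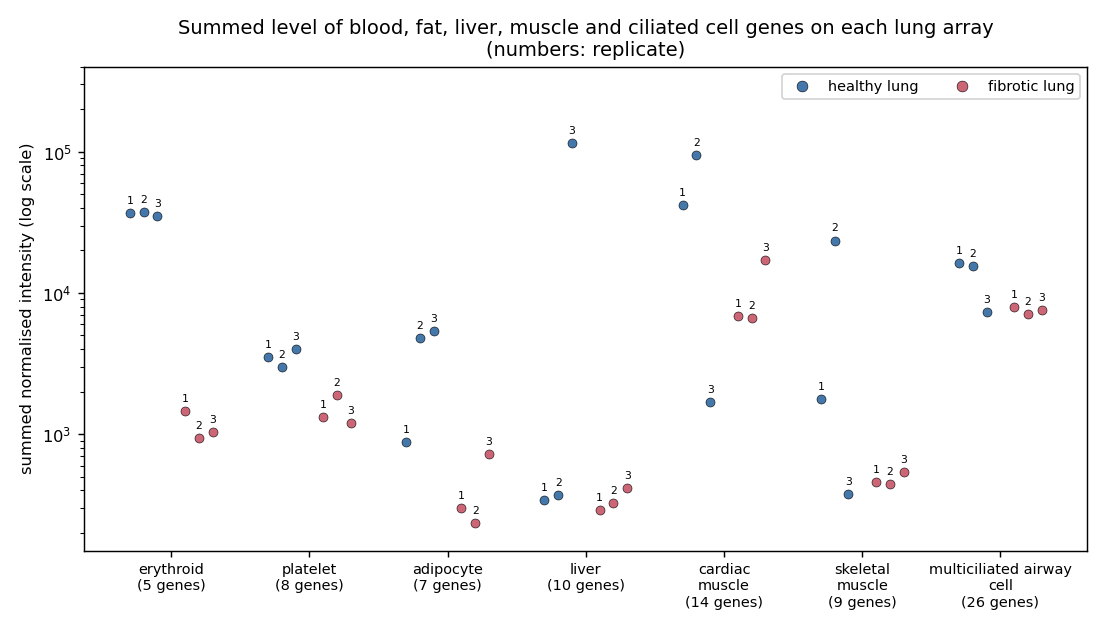
Summed normalised intensity (log scale) of 7 marker lists on each lung array, 1 point per array with its replicate number. Erythroid sums were 35300 to 37300 on the healthy and 946 to 1470 on the fibrotic arrays, and the liver sum stood out on healthy 3 alone.

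Of the 12105 genes, 4981 (41.1%) passed an adjusted p of 0.05, 2514 of them higher (20.8%) and 2467 lower (20.4%) in fibrotic lung. A change of at least 2-fold was reached by 1081 of the higher genes (8.93% of all tested) and 999 of the lower ones (8.25%). At least 4-fold was reached by 205 and 139. The levels of the groups did not overlap for 6695 genes (55.3%), and the median change of all genes was -0.03. The near-even split between higher and lower calls rests on the scaling of the arrays: 50.5% of called genes were higher as reported, 75.5% after each array was shifted to 1 shared median, and 87.9% with the intensities as the authors processed them. Those scalings put the median change over all genes at 0.24 and 0.48. Measured from that median, 0 of the 4981 called genes changed sign in either. Small changes are therefore read against that shift. Without healthy 3 and fibrotic 3 together, a check chosen after seeing the data, 2225 genes were higher and 2396 lower, and 3961 of the 4981 called genes were still called.

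Genes are grouped below by 51 lists, which name 1108 genes. Of these, 1024 have a probe on the array and 858 were tested, and 166 were left out by the detection filter. Among the 858, 37 were above background on no healthy array and 13 on no fibrotic array. These entered the test only through the other group, so no count below covers every member of its list. For such a gene the fold is a lower bound, written "at least N-fold". The chart of shares by list sets each list's calls beside the 20.8% higher and 20.4% lower of all genes.

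**Figure D2:**
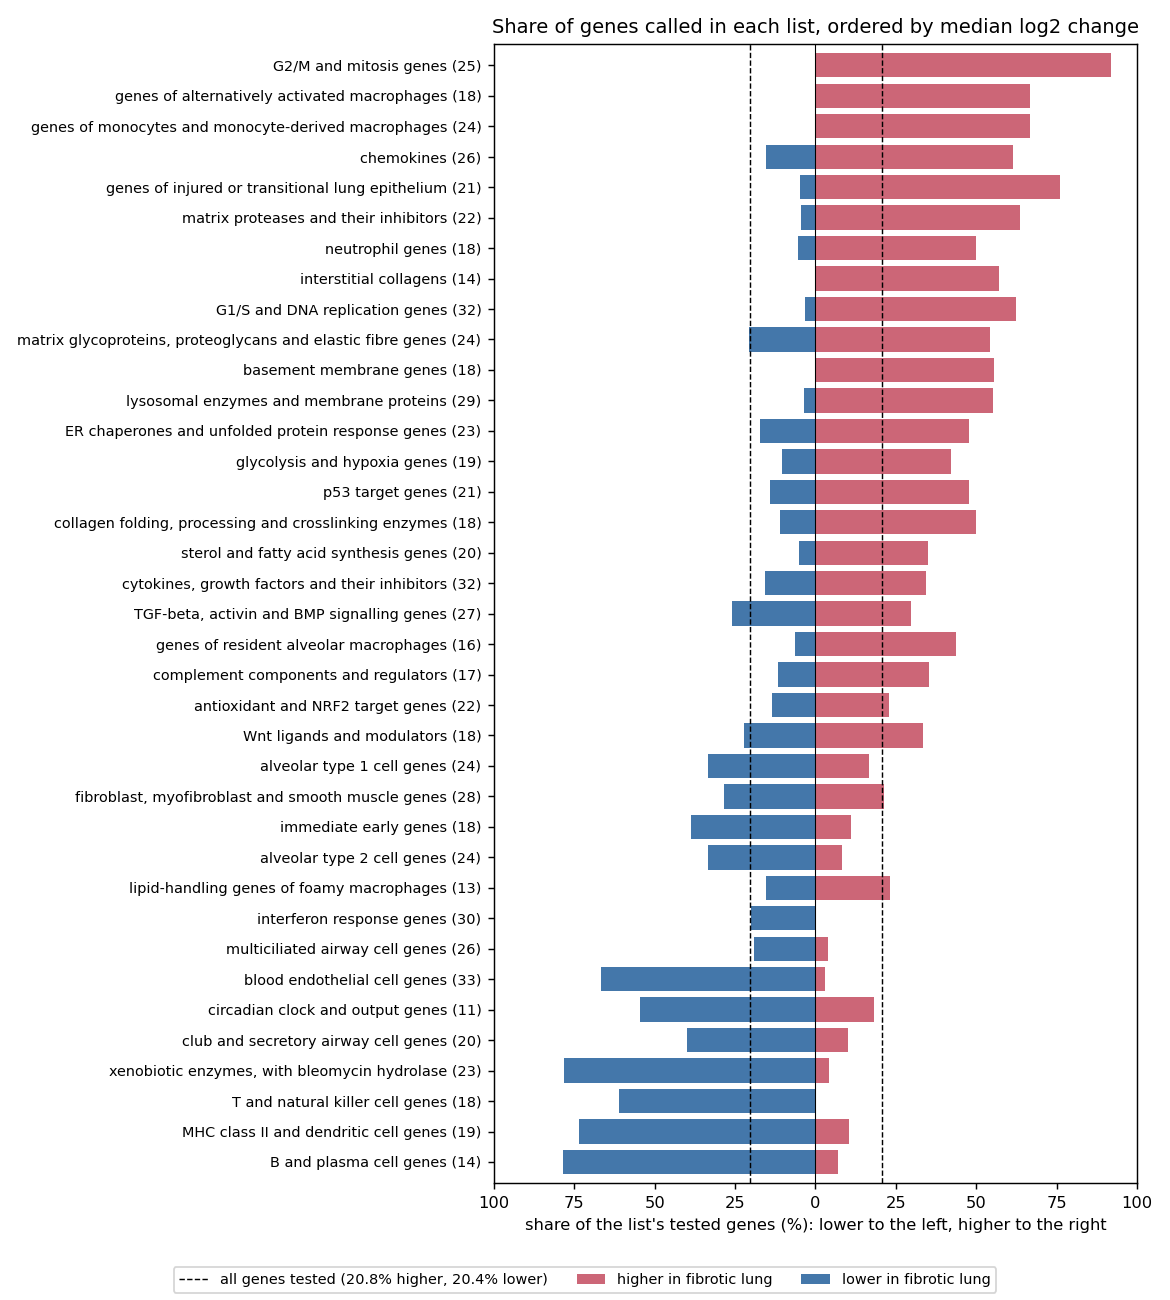
Share (%) of tested genes called higher (right) or lower (left) in fibrotic lung at an adjusted p under 0.05, for the lists with 10 or more tested genes other than cardiac muscle and liver genes, ordered by median change, with the number tested in parentheses. The dashed lines give the share over all 12105 genes, 20.8% higher and 20.4% lower; among these lists G2/M genes stand at the top, with 23 of 25 higher, and B and plasma cell genes at the bottom, with 11 of 14 lower.

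The largest rises named protease inhibitors, matrix genes and monocyte chemokines. Stfa1, a cysteine protease inhibitor of mouse neutrophils, led with a change of 5.82 ± 0.59, adjusted p = 0.00085. Its level was 4.55, 6.55 and 4.46 on the healthy arrays and 10.38, 11.06 and 11.59 on the fibrotic arrays, so it was above background on only 1 healthy array, healthy 2, and the change was 6.50 without that array. Wfdc17, a secreted protein of mouse macrophages, changed by 5.77 ± 0.33, and its healthy levels of 5.74, 6.97 and 6.44 stood well apart from the fibrotic 12.15, 11.82 and 12.46. Saa3, an acute phase protein gene, read 6.14, 9.29 and 6.85 on the healthy arrays and 11.79, 12.72 and 12.29 on the fibrotic arrays, highest among the healthy arrays on healthy 2. It changed by 4.84 ± 0.76, adjusted p = 0.00337, by 5.77 without healthy 2 and by 4.19 without healthy 1. Crct1, a gene of cornifying epithelium, was at least 17-fold higher, and the aggrecan-cleaving protease gene Adamts4 at least 20.4-fold higher, with neither above background on a healthy array. The plot of level against change shows these genes at its upper edge.

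**Figure D3:**
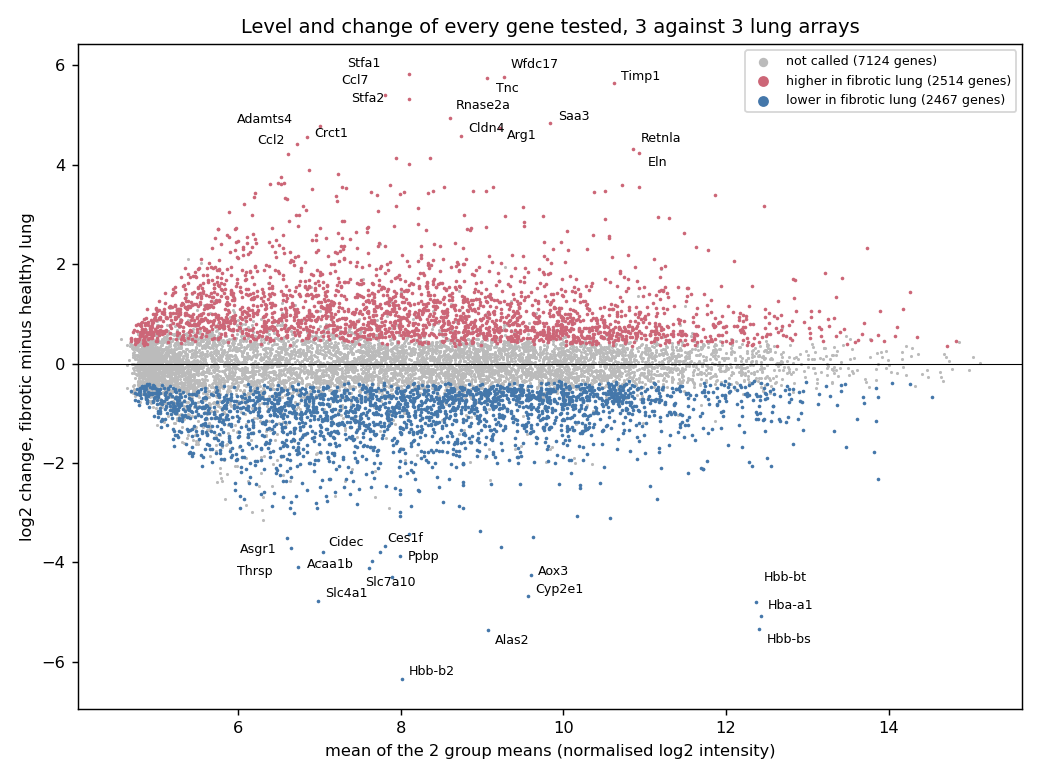
Change (log2, fibrotic minus healthy) against the mean of both group means (normalised log2 intensity) for 12105 genes, 1 point per gene, coloured where the adjusted p was under 0.05. Labels mark the 15 largest rises and 15 largest falls that the text's rule names; Stfa1, Wfdc17, Tnc and Timp1 lie above 5 and Hbb-b2 lies below all others.

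Interstitial collagens rose. Of 14 such genes tested, 8 were higher and 0 lower, with a median change of 1.08. Col1a1, a chain of the main fibrillar collagen, stood at 8.26, 8.31 and 8.21 on the healthy arrays and 11.55, 10.47 and 11.67 on the fibrotic arrays. Every fibrotic level lay above every healthy one, and fibrotic 2 was the lowest of the fibrotic arrays (change 2.97 ± 0.31, adjusted p = 0.000946). Its partner chain Col1a2 read 5.92, 5.70 and 5.33 on the healthy arrays and 6.75, 5.86 and 6.69 on the fibrotic arrays, and there the ranges overlapped, because fibrotic 2 fell below healthy 1 (0.79 ± 0.28, adjusted p = 0.0596). The fibrillar Col3a1 changed by 2.18 ± 0.25, and Col5a1 and Col5a2, chains of the collagen that starts fibrils, by 2.53 ± 0.20 and 3.18 ± 0.25. The beaded-filament chains Col6a1 and Col6a2 rose by 1.10 and 1.79.

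Basement membrane genes, which build the sheet beneath epithelium and endothelium, rose as well. Of 18 tested, 10 were higher and 0 lower (median 0.63; 6 higher without healthy 1 and also without fibrotic 1). Col4a1 and Col4a2, the chains found in all basement membranes, read 14.06, 14.01 and 14.00 and 13.54, 13.33 and 13.62 on the fibrotic arrays against 12.69, 12.54 and 12.82 and 12.16, 11.97 and 12.40 on the healthy ones. Neither gene's groups overlapped, and the changes were 1.33 ± 0.13 and 1.32 ± 0.16. The alveolar chain Col4a4 changed by 0.67 ± 0.15, and its partner Col4a3 by 0.72 ± 0.30, adjusted p = 0.0952, which did not pass. Lamc1 and Lamb1, laminin chains, rose by 1.03 and 0.87.

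Genes that fold and crosslink collagen split. Of 18 tested, 9 were higher and 2 lower (median 0.43). Lox, the lysyl oxidase that crosslinks collagen and elastin, stood at 9.14, 9.11 and 8.52 on the healthy arrays and 12.50, 12.48 and 12.59 on the fibrotic arrays, so the 3 fibrotic arrays were nearly equal and all lay far above the healthy range (3.60 ± 0.19, adjusted p = 0.000176). Its relative Loxl1, which acts on elastin, rose by 1.56 ± 0.15. The collagen chaperone gene Serpinh1 read 12.46, 12.40 and 12.36 on the healthy arrays and 12.55, 12.53 and 12.80 on the fibrotic arrays, a change of 0.23 ± 0.13, adjusted p = 0.209, and the lysyl hydroxylase gene Plod2 changed by -0.35 ± 0.20, adjusted p = 0.205, and neither passed the test. P4ha1, a prolyl hydroxylase subunit gene, fell, from 7.83, 8.06 and 7.80 to 6.22, 5.65 and 6.49 (-1.78 ± 0.23, adjusted p = 0.00169). P3h1, which hydroxylates prolines at another position, rose by 1.52 ± 0.19, and P4ha3 was at least 1.62-fold higher. Pcolce2, an enhancer of procollagen cleavage, fell by 2.09 and its relative Pcolce rose by 0.79.

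Most adhesive glycoprotein and elastic fibre genes that passed the test were higher. Of 24 tested, 13 were higher and 5 lower (median 0.85; 3 lower without healthy 2, fibrotic 1 or fibrotic 2). Tnc, a glycoprotein of provisional and developing matrix, read 6.07, 6.02 and 6.45 on the healthy arrays and 11.97, 11.87 and 11.97 on the fibrotic arrays. Replicates were close to each other while the group means lay 5.76 ± 0.15 apart (adjusted p = 3.73e-05). Eln, the elastin gene, stood at 8.93, 8.88 and 8.63 on the healthy arrays and 13.33, 12.60 and 13.21 on the fibrotic arrays (4.23 ± 0.22, adjusted p = 0.000168), again without overlap. Fn1, fibronectin, changed by 2.95 ± 0.30, Thbs1, an activator of latent TGF-beta, by 3.52 ± 0.23, and Ccn4, a matricellular protein gene downstream of Wnt signals, by 2.77 ± 0.16. Vcan, a large proteoglycan of provisional matrix, was above background on no healthy array and at least 4.18-fold higher. The small proteoglycan gene Ogn went the other way, from 12.92, 12.39 and 12.61 to 10.47, 9.87 and 10.94 (-2.21 ± 0.29, adjusted p = 0.00175). Postn, periostin, has probes on the array, but none was detected on at least 2 lung arrays.

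Proteases and inhibitors that shape matrix rose with it. Of 22 tested, 14 were higher and 1 lower (median 1.28). Timp1, an inhibitor of metalloproteinases, read 7.70, 8.35 and 7.35 on the healthy arrays and 12.89, 13.65 and 13.77 on the fibrotic arrays, the largest change of this list at 5.64 ± 0.33, adjusted p = 0.00022. The stromelysins Mmp3 and Mmp10 rose as well. Mmp3 went from 7.88, 8.12 and 7.77 to 11.24, 11.25 and 10.74, and Mmp10, above background on no healthy array, was at least 12.8-fold higher. The collagenase gene Mmp13 changed by 3.56 ± 0.37 and the membrane-bound collagenase gene Mmp14 by 2.10 ± 0.17. Mmp2, a gelatinase, rose by 1.18. The macrophage elastase gene Mmp12 read 6.40, 7.28 and 5.91 on the healthy arrays and 7.86, 6.33 and 7.29 on the fibrotic arrays, with overlapping groups, and did not pass (0.63 ± 0.47, adjusted p = 0.319). Ctsk, a lysosomal collagenase, rose by 2.90 ± 0.37, and Plat, which turns plasminogen into plasmin, by 2.03 ± 0.21.

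Fibroblast, myofibroblast and smooth muscle genes did not move 1 way. Of 28 tested, 6 were higher and 8 lower, shares close to those of all genes. In the common-median and processed scalings, 9 and 12 were higher and 5 lower in each, and the median of -0.09 turned to 0.26 and 0.45. Without healthy 1 the median was 0.09 and without fibrotic 2 it was 0.01. It went the other way without fibrotic 1 (-0.22) and without healthy 3 (-0.3, with 7 higher and 11 lower). Leaving out healthy 3 and fibrotic 3 together gave -0.4. Acta2, smooth muscle actin and the usual mark of myofibroblasts, read 13.61, 13.48 and 12.50 on the healthy arrays and 13.68, 13.61 and 13.95 on the fibrotic arrays. Healthy 1 reached the lowest fibrotic level, healthy 2 lay just below it and healthy 3 further down, and the change of 0.55 ± 0.30, adjusted p = 0.184 did not pass. Tagln, another smooth muscle gene, rose by 0.87 ± 0.16, adjusted p = 0.00662, Cald1 by 1.37 ± 0.20, Vim, the intermediate filament of mesenchymal cells, by 1.39 ± 0.17 and S100a4, found in fibroblasts and macrophages, by 2.60 ± 0.16. The receptors that mark fibroblasts and pericytes moved little, with changes of 0.10 ± 0.15, adjusted p = 0.602, for Pdgfra and -0.10 ± 0.24, adjusted p = 0.746, for Pdgfrb. Among the 8 members that fell, the transcription factor Tcf21 read 11.09, 10.86 and 11.13 on the healthy and 9.03, 9.04 and 10.00 on the fibrotic arrays (-1.67 ± 0.28, adjusted p = 0.00405), the integrin subunit Itga8 changed by -1.98 ± 0.20 and its ligand gene Npnt by -1.53 ± 0.19.

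**Figure D4:**
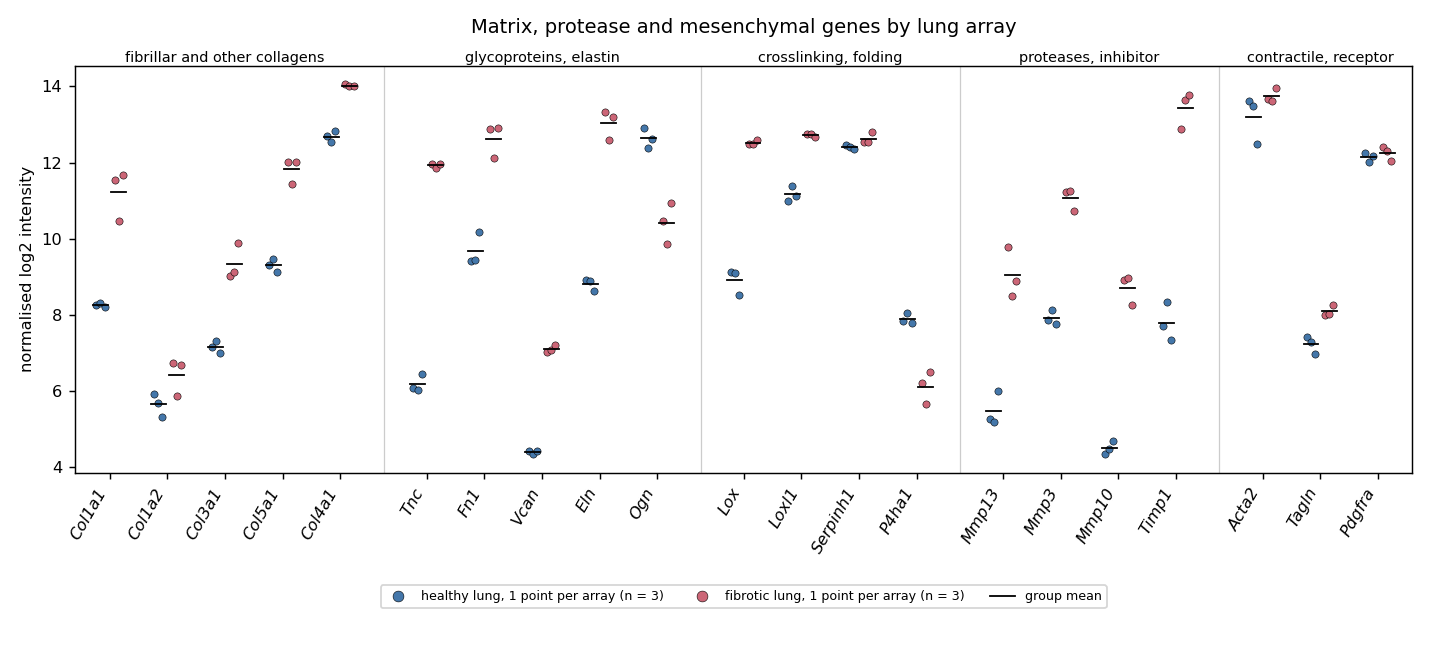
Normalised log2 intensity of 21 matrix, protease and mesenchymal genes on each lung array, 1 point per array, with black bars for group means (n = 3). Tnc, Lox, Eln and Timp1 show wide gaps between groups, whereas Acta2, Pdgfra and Serpinh1 lie at nearly the same height in both.

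In the TGF-beta family, which drives fibroblasts toward matrix production, 8 of 27 tested genes were higher and 7 lower (median 0.21). That near-even split rests on the scaling, since 13 were higher and 4 lower in the common-median scaling (median 0.56) and 16 and 3 in the processed intensities (0.74). The transcript of the ligand Tgfb1 did not pass, at 8.62, 8.63 and 8.68 on the healthy arrays and 8.72, 8.39 and 8.54 on the fibrotic arrays (-0.09 ± 0.13, adjusted p = 0.601). Inhba, which encodes the activin A subunit, rose by 2.32 ± 0.43, adjusted p = 0.00625, and the activin-binding antagonist gene Fst went from 6.12, 6.25 and 5.22 to 9.92, 9.85 and 10.26 (4.15 ± 0.29, adjusted p = 0.000288). The receptor gene Tgfbr2 rose by 0.60 ± 0.13. Ltbp4, which holds latent TGF-beta in elastic matrix, fell, from 12.44, 12.10 and 12.32 to 9.71, 9.54 and 10.24 (-2.46 ± 0.21, adjusted p = 0.000499). Smad6, an inhibitor of BMP signalling, changed by -1.25 ± 0.14. Tgfbr3, the co-receptor betaglycan, changed by -1.48 ± 0.13, although another of its probes was called in the opposite direction.

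Genes of injured and transitional epithelium, the state that alveolar type 2 cells pass through on the way to type 1 cells, rose. Of 21 tested, 16 were higher and 1 lower (median 1.36). Cldn4, a tight junction claudin of that state, read 6.74, 7.22 and 5.39 on the healthy arrays and 10.98, 11.44 and 10.68 on the fibrotic arrays (4.58 ± 0.46, adjusted p = 0.000817), with all fibrotic levels above all healthy ones. The keratins Krt8, Krt18 and Krt19 rose by 1.03 ± 0.18, 1.26 ± 0.19 and 1.50 ± 0.16, and the basal cell keratin Krt14 by 2.65 ± 0.28. Sfn, a cell cycle inhibitor of epithelia, was at least 4.31-fold higher, and Lcn2, an iron-carrier-binding protein of epithelium and neutrophils, went from 9.74, 10.98 and 9.77 to 13.16, 13.72 and 13.81 (3.40 ± 0.37, adjusted p = 0.000997). Several members are not epithelial alone: Lgals3 and Lgals1, which rose by 1.68 and 2.34, are also macrophage and fibroblast genes, and Msln, which rose by 1.91, marks mesothelium.

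Targets of p53, the transcription factor that responds to DNA breaks, went 10 higher and 3 lower of 21 (median 0.48; 15 and 1 with a common median, 16 and 1 with the processed intensities). Cdkn1a, the cell cycle inhibitor p21, read 9.21, 9.31 and 8.95 on the healthy arrays and 12.73, 12.91 and 12.49 on the fibrotic arrays, and the fibrotic arrays lay close together, far above the healthy ones (3.55 ± 0.17, adjusted p = 0.000129). Zmat3, Phlda3 and the death receptor gene Fas rose by 1.31 ± 0.16, 1.13 ± 0.18 and 0.82 ± 0.14. Mdm2, which degrades p53 and is its classical target, read 11.09, 11.07 and 10.83 on the healthy arrays and 11.16, 11.22 and 10.71 on the fibrotic arrays (0.04 ± 0.18, adjusted p = 0.871), and Ccng1 changed by 0.48 ± 0.23, adjusted p = 0.136; neither passed. Rrm2b, a p53-induced subunit of ribonucleotide reductase, fell, with a change of -1.07 ± 0.16. Ckap2, at least 4.94-fold higher, is also a mitotic spindle gene.

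Alveolar type 2 cells make surfactant, and their genes split. Of 24 tested, 2 were higher and 8 lower (median -0.23; 5 lower without healthy 1 and also without fibrotic 1). In the common-median and processed scalings 4 and 6 were higher and 4 lower in each. The median was 0.10 and 0.32, below the shift of all genes in both. Sftpc, the surfactant protein made in this cell alone, read 14.18, 14.01 and 14.06 on the healthy arrays and 13.61, 13.68 and 13.51 on the fibrotic arrays, a small change without overlap (-0.48 ± 0.12, adjusted p = 0.0198). That call was lost without healthy 1 (-0.44, adjusted p = 0.0762) and without fibrotic 1 (-0.49, adjusted p = 0.0574), and the value was 0.10 in the processed intensities. Sftpa1 fell more, from 12.82, 12.76 and 12.67 to 10.89, 10.17 and 11.32 (-1.96 ± 0.28, adjusted p = 0.00242), while Sftpb changed by -0.38 ± 0.15, adjusted p = 0.0765, which did not pass. Lgi3 and the complement gene Hc, both genes of type 2 cells in mouse lung, changed by -2.40 ± 0.26 and -3.69 ± 0.25. The protease gene Ctsh, which processes surfactant protein, rose from 12.28, 12.22 and 12.44 to 14.19, 14.19 and 14.01 (1.82 ± 0.13, adjusted p = 0.000322).

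Alveolar type 1 cells form the gas exchange surface. Of 24 genes tested, 4 were higher and 8 lower (median -0.07). In the common-median and processed scalings 9 and 13 were higher, 3 and 2 lower, and the medians were 0.32 and 0.50. Leaving out any 1 array but healthy 2 brought the lower count to 4 or 5, and without healthy 2 the higher count was 2. Ager, a receptor abundant in these cells, read 14.08, 13.90 and 14.10 on the healthy arrays and 13.28, 13.22 and 13.55 on the fibrotic arrays (-0.67 ± 0.14, adjusted p = 0.0105). Hopx, Pdpn and Aqp5, a transcription regulator, a surface glycoprotein and a water channel, changed by -0.17 ± 0.12, adjusted p = 0.297, by 0.09 ± 0.12, adjusted p = 0.591, and by -0.40 ± 0.15, adjusted p = 0.0756, and none passed. Sema3e and Igfbp2, secreted proteins, fell by 1.69 and 1.50, and the caveolin gene Cav2 rose by 1.66 ± 0.34.

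Club cells line the bronchioles and metabolise inhaled compounds. Of 20 tested genes of club and secretory cells, 2 were higher and 8 lower (median -1.14). In the common-median and processed scalings 3 and 6 were higher and 8 lower in each, with medians of -0.8 and -0.6. Without healthy 2, 4 were higher and 7 lower, and without healthy 3, 2 were higher and 11 lower (median -1.26). Cyp2f2, a cytochrome of mouse club cells, read 15.19, 15.15 and 14.75 on the healthy arrays and 12.98, 12.30 and 12.81 on the fibrotic arrays (-2.33 ± 0.22, adjusted p = 0.000696), and every fibrotic level lay below every healthy one. The carbonyl reductase gene Cbr2 changed by -1.78 ± 0.13, the paraoxonase gene Pon1 by -3.07 ± 0.20 and the retinal dehydrogenase gene Aldh1a1 by -1.54 ± 0.21. Scgb1a1, the main secreted protein of these cells, did not fall with them: it read 14.42, 14.83 and 14.68 on the healthy arrays and 15.15, 15.02 and 15.07 on the fibrotic arrays, with all 3 fibrotic levels above the healthy ones and a change of 0.43 ± 0.15, adjusted p = 0.0521. Bpifa1, a secreted protein of the large airways, was at 12.02, 13.44 and 5.26 on the healthy arrays, so that healthy 3 held almost none, and at 11.39, 10.57 and 12.85 on the fibrotic ones.

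Multiciliated cell genes depended on the same healthy array. Of 26 tested, 1 was higher and 5 were lower with all arrays, with a median of -0.28 (0.24 in the processed scaling). Without healthy 3, which had a summed level of 7370 against 16200 and 15600 on healthy 1 and 2, 16 were lower and the median was -0.77; without any of healthy 1, healthy 2, fibrotic 1 or fibrotic 2, 3 were lower. Rsph1, a radial spoke gene of cilia, read 10.50, 10.64 and 8.99 on the healthy arrays and 9.35, 9.15 and 9.46 on the fibrotic arrays, so that healthy 3 sat below the fibrotic range (-0.72 ± 0.42, adjusted p = 0.211). Tppp3 and Odf3b fell on every fibrotic array, with changes of -1.35 ± 0.19 and -1.46 ± 0.28. Foxj1, the master regulator of ciliated cells, changed by -0.18 ± 0.19, adjusted p = 0.483.

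Enzymes that handle foreign compounds fell. Of 23 tested, 1 was higher and 18 were lower (median -1.25). In the common-median and processed scalings 1 was higher and 13 were lower in each, with medians of -0.87 and -0.69. Aox3, an aldehyde oxidase, went from 11.78, 11.60 and 11.82 to 7.39, 6.83 and 8.20, the largest of these falls after that of Cyp2e1 (-4.26 ± 0.33, adjusted p = 0.000384). The glutathione transferases Gstm1, Gstt1 and Gsta3 changed by -2.10 ± 0.17, -1.95 ± 0.19 and -1.63 ± 0.12. Fmo1, a flavin monooxygenase, changed by -1.99 ± 0.19, and the carboxylesterase gene Ces1f by -3.80 ± 0.40. Cyp2e1, the ethanol-metabolising cytochrome, read 9.75, 12.17 and 13.81 on the healthy arrays and 6.51, 6.75 and 8.41 on the fibrotic arrays. Its highest healthy level was on the array with liver transcripts, and its change of -4.68 ± 1.01 was -3.74 without healthy 3, -5.76 without healthy 1 and -5.28 without fibrotic 3. Blmh, bleomycin hydrolase, which inactivates the drug, read 9.02, 9.27 and 8.44 on the healthy arrays and 8.16, 7.71 and 8.22 on the fibrotic arrays (-0.88 ± 0.25, adjusted p = 0.029). That call was lost without any 1 of healthy 1, healthy 2, fibrotic 1 or fibrotic 2, where the adjusted p was 0.0868, 0.0808, 0.0621 and 0.0876.

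Antioxidant genes under NRF2, the sensor of oxidative stress, went 5 higher and 3 lower of 22, near the share of all genes (median 0.12; 3 higher without healthy 1 and also without fibrotic 2). With a common median 10 were higher and 1 lower, and with the processed intensities 14 and 1. Hmox1, the enzyme that breaks down haem, read 6.08, 5.99 and 5.67 on the healthy arrays and 9.62, 9.15 and 9.30 on the fibrotic arrays (3.44 ± 0.18, adjusted p = 0.000168). Slc7a11, the cystine importer, and Srxn1, which repairs peroxiredoxins, rose by 1.87 ± 0.28 and 1.05 ± 0.19. Txnrd1, another classical target, was at 5.85, 5.12 and 4.86 on the healthy arrays and 6.10, 6.25 and 5.11 on the fibrotic arrays, with overlap (0.55 ± 0.37, adjusted p = 0.276). Catalase, Cat, fell from 11.11, 10.57 and 11.51 to 9.23, 8.83 and 9.32 (-1.93 ± 0.26, adjusted p = 0.00203).

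Genes of monocytes and monocyte-derived macrophages rose. Of 24 tested, 16 were higher and 0 lower (median 1.61). Trem2, a lipid-sensing receptor of scar-associated macrophages, read 6.00, 6.42 and 6.42 on the healthy arrays and 10.14, 9.02 and 9.93 on the fibrotic arrays (3.42 ± 0.30, adjusted p = 0.000563), with no overlap. The C1q chains C1qa, C1qb and C1qc, which macrophages secrete, changed by 2.04 ± 0.25, 2.30 ± 0.32 and 2.68 ± 0.25, in near step across arrays. The chemokine receptors that mark circulating monocytes moved the other way without passing, Ccr2 by -0.49 ± 0.23, adjusted p = 0.131, and Cx3cr1 by -0.86 ± 0.42, adjusted p = 0.142.

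Genes of resident alveolar macrophages were mixed. Of 16 tested, 7 were higher and 1 was lower (median 0.18; 5 lower without healthy 3). The scavenger receptor gene Marco rose from 4.92, 5.07 and 4.62 to 7.01, 6.75 and 6.05 (1.73 ± 0.27, adjusted p = 0.00307) and the mannose receptor gene Mrc1 from 9.67, 9.94 and 9.52 to 11.90, 11.78 and 11.97. Pparg, the transcription factor that shapes these cells, did not pass (-0.19 ± 0.21, adjusted p = 0.495). The list's fall was Cidec, a lipid droplet gene that adipocytes also express, whose levels were 7.83, 9.84 and 9.15 on the healthy and 4.94, 4.39 and 6.13 on the fibrotic arrays. Among 13 lipid-handling genes of foamy macrophages, 3 were higher and 2 lower (6 and 1 with the processed intensities). Msr1, a scavenger receptor for modified lipoproteins, changed by 3.33 ± 0.21, and Lpl, lipoprotein lipase, by 0.22 ± 0.27, adjusted p = 0.543.

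In the alternatively activated set, which interleukin 4 and 13 induce, 12 of 18 were higher and 0 lower (median 1.72). Retnla, a resistin-like secreted protein, read 8.45, 9.80 and 7.86 on the healthy arrays and 12.97, 12.78 and 13.31 on the fibrotic arrays (4.32 ± 0.47, adjusted p = 0.00101). The chitinase-like gene Chil3 went from 10.39, 11.77 and 9.74 to 12.83, 13.02 and 12.92, with healthy 2 nearest to the fibrotic range. The receptor genes Il4ra and Il13ra1 rose by 1.62 ± 0.32 and 1.60 ± 0.18. Arg1, arginase 1, is also a liver enzyme, and its levels were 4.71, 4.87 and 10.95 on the healthy arrays and 11.69, 11.31 and 11.76 on the fibrotic arrays, so that healthy 3, the array with liver transcripts, lay within a log2 unit of the fibrotic range. Its change was 4.75 ± 1.57, adjusted p = 0.0485, and 6.80 (adjusted p = 1.6e-05) without healthy 3, whereas leaving out any other 1 array gave an adjusted p between 0.111 and 0.136. Rnase2a, an eosinophil-associated ribonuclease, changed by 4.95 ± 0.67, and by 4.10 without healthy 1, the array on which it was lowest.

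More chemokine genes were higher than lower. Of 26 chemokine genes tested, 16 were higher and 4 lower (median 1.44). Ccl2, the main monocyte chemoattractant, was above background on no healthy array and read 8.85, 8.86 and 9.09 on the fibrotic ones, at least 14.8-fold higher (adjusted p = 3.73e-05). Its neighbour in function, Ccl7, went from 5.02, 5.31 and 4.97 to 10.34, 10.35 and 10.84 (5.41 ± 0.19, adjusted p = 4.3e-05), and Ccl12 from 6.67, 6.80 and 6.50 to 9.17, 10.73 and 10.48. Cxcl13, a B cell attractant, rose as well (1.84 ± 0.47, adjusted p = 0.0193), a call lost without fibrotic 2 or fibrotic 3 (adjusted p = 0.0679 and 0.0592). Among the 4 that fell, Ccl21a, the lymphatic chemokine that guides T cells and dendritic cells, changed by -2.43 ± 0.50, the T cell product Ccl5 by -2.53 ± 0.31, Cx3cl1, an endothelial chemokine that attracts monocytes and lymphocytes, by -1.93 ± 0.15, and Ccl27a, above background on 1 fibrotic array, by -2.42 ± 0.28. Ccl11, an eosinophil attractant, spread widely among the fibrotic arrays, at 5.77, 8.60 and 10.79, and did not pass (1.70 ± 1.15, adjusted p = 0.274).

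Among cytokines and growth factors, 11 of 32 were higher and 5 lower (median 0.31; 13 higher and 1 lower with a common median, 18 and 0 with the processed intensities; 2 lower without healthy 1, and 3 lower without fibrotic 1 or fibrotic 2). Il11, a cytokine of the interleukin 6 family that acts on fibroblasts, stood at 5.20, 5.48 and 4.97 on the healthy arrays and 7.77, 8.17 and 8.67 on the fibrotic arrays (2.99 ± 0.26, adjusted p = 5e-04). The epidermal growth factor family ligands Hbegf and Nrg1 rose by 1.36 ± 0.25 and 2.17 ± 0.30, and the platelet-derived growth factor gene Pdgfc by 1.59 ± 0.24. Lif was at least 1.78-fold and Tnf at least 1.25-fold higher, and Il6 at least 1.34-fold, the last without passing (adjusted p = 0.0654). Il1b and the alarmin gene Il33 overlapped between groups, with changes of 0.95 ± 0.50, adjusted p = 0.17, and -0.57 ± 0.36, adjusted p = 0.247.

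Neutrophil genes rose in part. Of 18 tested, 9 were higher and 1 was lower (median 1.13). Without healthy 2, 12 were higher, and without any other 1 array, 7 were. Summed levels were 32400, 51300 and 26500 on the healthy and 44600, 52700 and 71000 on the fibrotic arrays, so healthy 2 lay inside the fibrotic range. Stfa2, a stefin, went from 4.70, 6.37 and 5.23 to 10.35, 10.67 and 11.27 (5.33 ± 0.44, adjusted p = 0.000471), and the granule gene Ngp, above background on no healthy array, was at least 2.37-fold higher. The calprotectin gene S100a9 read 10.07, 12.47 and 10.22 on the healthy arrays and 11.60, 12.05 and 12.58 on the fibrotic arrays (1.16 ± 0.64, adjusted p = 0.188) and did not pass. The receptor genes Csf3r and Cxcr2 changed by -0.11 ± 0.30, adjusted p = 0.793, and by 1.54 ± 0.63, adjusted p = 0.0923, and did not pass either. S100a8 and Retnlg were called higher (2.06 ± 0.60, adjusted p = 0.0323, and 2.96 ± 0.95, adjusted p = 0.0436). Leaving out healthy 2 gave them an adjusted p of 0.0042 and 0.0066, and leaving out any other 1 array lost both calls. Chil1 fell, from 13.52, 13.73 and 13.50 to 11.05, 11.44 and 12.07 (-2.07 ± 0.26, adjusted p = 0.00156). Stefins, haemoglobins and class II genes have near-identical copies, and a probe can take up a relative's transcript.

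Lymphocyte genes fell. Of 18 T and natural killer cell genes tested, 0 were higher and 11 lower (median -1.51), and of 14 B and plasma cell genes, 1 was higher and 11 were lower (median -1.66). Cd3e, a chain of the T cell receptor complex, stood at 7.26, 7.86 and 7.55 on the healthy arrays and 4.92, 5.44 and 5.71 on the fibrotic arrays (-2.20 ± 0.25, adjusted p = 0.00113). Zap70, the kinase it recruits, changed by -2.16 ± 0.21, the pore-forming protein gene Prf1 by -1.89 ± 0.17 and the natural killer receptor gene Klrd1 by -2.04 ± 0.25. Foxp3, the regulator of regulatory T cells, did not follow (-0.11 ± 0.14, adjusted p = 0.556). In B cells, the receptor chain gene Cd79b went from 9.21, 9.30 and 9.27 to 6.36, 6.90 and 6.90 (-2.54 ± 0.18, adjusted p = 0.000303), the kinase gene Blk changed by -2.19 ± 0.21, and Fcmr, the Fc receptor for IgM, by -2.47 ± 0.17. Other blood transcripts were lower on the same arrays: the summed level of 5 erythroid genes was 35300 to 37300 on the healthy and 946 to 1470 on the fibrotic arrays, and that of 8 platelet genes 2990 to 4030 and 1210 to 1910. The part of blood content in the lymphocyte result was not tested.

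MHC class II molecules present antigen to helper T cells, and their genes fell with the lymphocyte genes. Of 19 genes of class II and dendritic cells tested, 2 were higher and 14 lower (median -1.65). H2-Ab1, a class II chain, read 11.00, 11.24 and 11.35 on the healthy arrays and 9.00, 8.59 and 9.37 on the fibrotic arrays (-2.21 ± 0.22, adjusted p = 0.000789), and the invariant chain Cd74 changed by -1.64 ± 0.23. Ciita, the regulator that switches on class II genes, went from 7.46, 7.38 and 7.29 to 5.86, 4.95 and 6.38 (-1.65 ± 0.34, adjusted p = 0.0093). Among dendritic cell markers, Itgae changed by -1.80 ± 0.16, the plasmacytoid marker Siglech by -2.55 ± 0.25, and Clec9a was at least 2.98-fold lower. Cd80, a costimulator, rose by 1.23 ± 0.16.

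Few interferon response genes changed. Of 30 tested, 0 were higher and 6 lower in limma's fit (3 higher at an unadjusted p under 0.05). The median of -0.28 became 0.08 and 0.29 in the common-median and processed scalings, below the shift of all genes in both, with 2 and 10 higher and 2 lower in each. Rsad2, an antiviral enzyme, changed by -1.41 ± 0.26 and the regulator Irf1 by -1.05 ± 0.16, while Isg15 and Irf7 did not pass (0.31 ± 0.26, adjusted p = 0.379, and 0.25 ± 0.20, adjusted p = 0.354). Of 17 complement genes, 6 were higher and 2 lower, and those that rose included the C1q chains given above. The fall of Hc, which encodes complement C5, was from 11.01, 10.99 and 11.24 to 7.56, 6.85 and 7.75 (-3.69 ± 0.25, adjusted p = 0.000262).

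Most blood endothelial genes fell. Of 33 tested, 1 was higher and 22 were lower (median -0.82), and without healthy 1, 0 were higher and 16 lower. In the common-median scaling 2 were higher and 12 lower (median -0.43), and in the processed intensities 5 and 11 (-0.25). Tek and Tie1, the receptors of angiopoietin signalling, read 12.24, 11.97 and 12.24 and 9.73, 9.42 and 9.82 on the healthy and 10.91, 10.86 and 10.97 and 8.19, 7.85 and 8.16 on the fibrotic arrays (-1.24 ± 0.13, adjusted p = 0.00101, and -1.59 ± 0.17, adjusted p = 0.000922). The TGF-beta co-receptor endoglin, Eng, changed by -1.35 ± 0.12, thrombomodulin, Thbd, by -1.56 ± 0.14 and the junction cadherin Cdh5 by -1.01 ± 0.18. Pecam1 and Vwf, the most used endothelial markers, did not pass, with changes of -0.32 ± 0.18, adjusted p = 0.188, and -0.29 ± 0.17, adjusted p = 0.221. Among 8 lymphatic genes, 1 was higher and 1 lower. Lyve1, a hyaluronan receptor of lymphatic vessels and some macrophages, rose by 1.26 ± 0.28, adjusted p = 0.0114, and Prox1, the lymphatic master regulator, changed by -0.70 ± 0.26, adjusted p = 0.0739.

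Red cell transcripts gave the largest falls among the genes that the naming rule gives, and platelet genes fell too. Hba-a1, an alpha globin gene, read 14.99, 15.05 and 14.88 on the healthy arrays and 10.36, 9.55 and 9.76 on the fibrotic arrays, and the beta globin probe for Hbb-b2 went from 11.30, 10.80 and 11.44 to 5.02, 4.79 and 4.70 (-6.34 ± 0.20, adjusted p = 3.73e-05). Alas2, the erythroid enzyme that starts haem synthesis, changed by -5.36 ± 0.22, adjusted p = 0.000106, and Slc4a1, the red cell anion exchanger, was at least 21.6-fold lower. Of 5 erythroid genes tested, 3 fell, while Klf1 and Rhag stood near background in both groups. Of 8 platelet genes, 5 were lower and 0 higher (median -2.13), and the integrin gene Itga2b read 7.97, 7.97 and 8.03 on the healthy arrays and 5.40, 5.69 and 5.65 on the fibrotic arrays (-2.41 ± 0.13, adjusted p = 0.000191). The labels do not say whether lungs were perfused, so blood content and treatment cannot be told apart for these genes or for those of lymphocytes, which blood also carries.

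Genes of G2 and mitosis had the largest share of calls in 1 direction among the lists charted. Of 25 tested, 23 were higher and 0 lower (median 1.79), and another 15 with probes did not pass the detection filter. Cdk1, the kinase that drives entry into mitosis, read 5.56, 5.54 and 5.64 on the healthy arrays and 8.66, 8.90 and 9.01 on the fibrotic arrays (3.27 ± 0.14, adjusted p = 0.000106). Both groups were tight, and the gap between them far exceeded the spread within either. The mitotic kinases Aurka and Plk1 changed by 2.48 ± 0.13 and 1.67 ± 0.13, the midzone protein gene Prc1 by 2.32 ± 0.13, the DNA topoisomerase gene Top2a by 2.39 ± 0.15 and the survivin gene Birc5 by 2.25 ± 0.17. G1/S and replication genes were less even, with 20 of 32 higher and 1 lower (median 0.85). Tyms and Tk1, which supply thymidine nucleotides, rose by 2.18 ± 0.22 and 2.05 ± 0.24 and the helicase subunit gene Mcm6 by 1.23 ± 0.15, whereas Mcm2 and the clamp gene Pcna did not pass (0.00 ± 0.16, adjusted p = 0.987, and 0.21 ± 0.21, adjusted p = 0.471).

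Because G2/M genes moved as a block, their promoters are shown. The DREAM complex is known to silence such genes in resting cells through a site called the cell cycle genes homology region, TTTGAA, and nearby CCAAT boxes bind the activator NF-Y. Both motifs were searched on either strand in RefSeq promoters of build GRCm38.p6, which run from 250 bases before to 50 after each gene's start. Of the 23 genes that rose, 19 matched, with 20 promoters. TTTGAA was present in 17 of the 20 (85%), against 17.9% of all 32851 promoters and 12.1% of the 12476 promoters of genes tested here. CCAAT was present in 14 (70%), against 37.4% and 36.9%, and both together in 14 (70%), against 6.95% and 4.69%. In the 20 promoters of the 15 matched G1/S genes that rose, TTTGAA was found in 2 (10%), CCAAT in 12 (60%) and the E2F motif TTTGGCGC in 3 (15%, against 0.514% of all promoters). These matches are a description and no sign of binding. The sequences follow for 5 of 7 G2/M genes, taken from the list's core, named whatever its values, and its 5 other members with the smallest p. They run 5′ to 3′ on the gene's strand, with both motifs or their reverse complements in capitals.
Cdk1, chr10:69352863-69353162, minus strand: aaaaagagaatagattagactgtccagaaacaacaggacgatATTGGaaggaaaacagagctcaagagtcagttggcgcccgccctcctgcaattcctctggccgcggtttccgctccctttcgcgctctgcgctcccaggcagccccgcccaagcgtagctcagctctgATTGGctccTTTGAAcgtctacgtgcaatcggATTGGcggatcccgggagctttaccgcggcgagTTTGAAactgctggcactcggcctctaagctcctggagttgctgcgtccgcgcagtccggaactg
Aurka, chr2:172370521-172370820, minus strand: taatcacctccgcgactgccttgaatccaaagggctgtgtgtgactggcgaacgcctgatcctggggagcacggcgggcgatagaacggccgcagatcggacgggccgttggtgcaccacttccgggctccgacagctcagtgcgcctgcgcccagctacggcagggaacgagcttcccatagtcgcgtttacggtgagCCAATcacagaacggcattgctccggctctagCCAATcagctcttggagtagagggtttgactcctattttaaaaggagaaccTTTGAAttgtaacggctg
Prc1, chr7:80294201-80294500, plus strand: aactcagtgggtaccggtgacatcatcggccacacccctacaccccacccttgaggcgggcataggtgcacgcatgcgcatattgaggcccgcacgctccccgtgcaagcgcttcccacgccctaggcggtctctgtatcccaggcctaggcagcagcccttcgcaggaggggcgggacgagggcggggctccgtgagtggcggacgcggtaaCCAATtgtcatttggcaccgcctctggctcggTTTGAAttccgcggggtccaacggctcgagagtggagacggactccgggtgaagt
Top2a, chr11:99024140-99024439, minus strand: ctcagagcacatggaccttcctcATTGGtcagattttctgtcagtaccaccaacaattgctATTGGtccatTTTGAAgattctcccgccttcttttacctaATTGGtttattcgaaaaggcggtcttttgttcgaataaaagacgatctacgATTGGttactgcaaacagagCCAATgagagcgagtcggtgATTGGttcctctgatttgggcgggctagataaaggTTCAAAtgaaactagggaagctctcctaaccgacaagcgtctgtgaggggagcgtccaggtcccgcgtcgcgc
Plk1, chr7:122159185-122159484, plus strand: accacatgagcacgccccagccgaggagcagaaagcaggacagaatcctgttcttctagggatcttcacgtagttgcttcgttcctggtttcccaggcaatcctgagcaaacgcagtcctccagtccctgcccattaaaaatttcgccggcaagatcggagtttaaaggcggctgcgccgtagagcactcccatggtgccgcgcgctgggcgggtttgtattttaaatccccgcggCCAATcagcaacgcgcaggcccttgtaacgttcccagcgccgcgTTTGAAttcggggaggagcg

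In Cdk1, TTTGAA began 71 and 15 bases before the start, with 3 CCAAT boxes in the window. Top2a held 6 CCAAT boxes, and its TTTGAA matches lay 179 and 23 bases before the start. Prc1 has 2 overlapping promoters, and its match began 5 bases before the start of the one shown and 30 before that of the other. In Aurka and Plk1 the match began 32 and 30 bases after the start. The promoters of Birc5 and Mad2l1, the other 2 of those 7 genes, held neither motif in these windows.

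Clock genes split by the arm of the loop they belong to. Arntl and Clock, the activators, rose, with Arntl at 5.09, 5.75 and 4.82 on the healthy arrays and 7.90, 7.81 and 7.39 on the fibrotic arrays (2.48 ± 0.27, adjusted p = 0.000995) and Clock changing by 0.87 ± 0.12, adjusted p = 0.0022. Several genes that this pair switches on fell. Dbp read 12.15, 12.04 and 12.19 on the healthy arrays and 8.30, 9.26 and 9.50 on the fibrotic arrays (-3.11 ± 0.30, adjusted p = 0.000744), and Per3 read 8.08, 7.95 and 7.99 on the healthy and 5.79, 5.98 and 5.77 on the fibrotic arrays (-2.16 ± 0.13, adjusted p = 0.00022). Tef, Per2, Nr1d2 and Ciart changed by -1.96 ± 0.24, -1.19 ± 0.13, -1.03 ± 0.17 and -0.96 ± 0.20. Nr1d1, the repressor of Arntl, stood at 7.08, 6.86 and 7.13 on the healthy arrays and 6.47, 8.24 and 6.19 on the fibrotic arrays, with fibrotic 2 above and the other fibrotic arrays below the healthy range, and Cry2 had the same array highest (-0.06 ± 0.51, adjusted p = 0.939, and -0.50 ± 0.34, adjusted p = 0.269). Over the list, 2 of 11 were higher and 6 lower (median -0.96). Such genes cycle over the day, and the hour of collection is not known here, so it cannot be told apart from treatment.

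**Figure D5:**
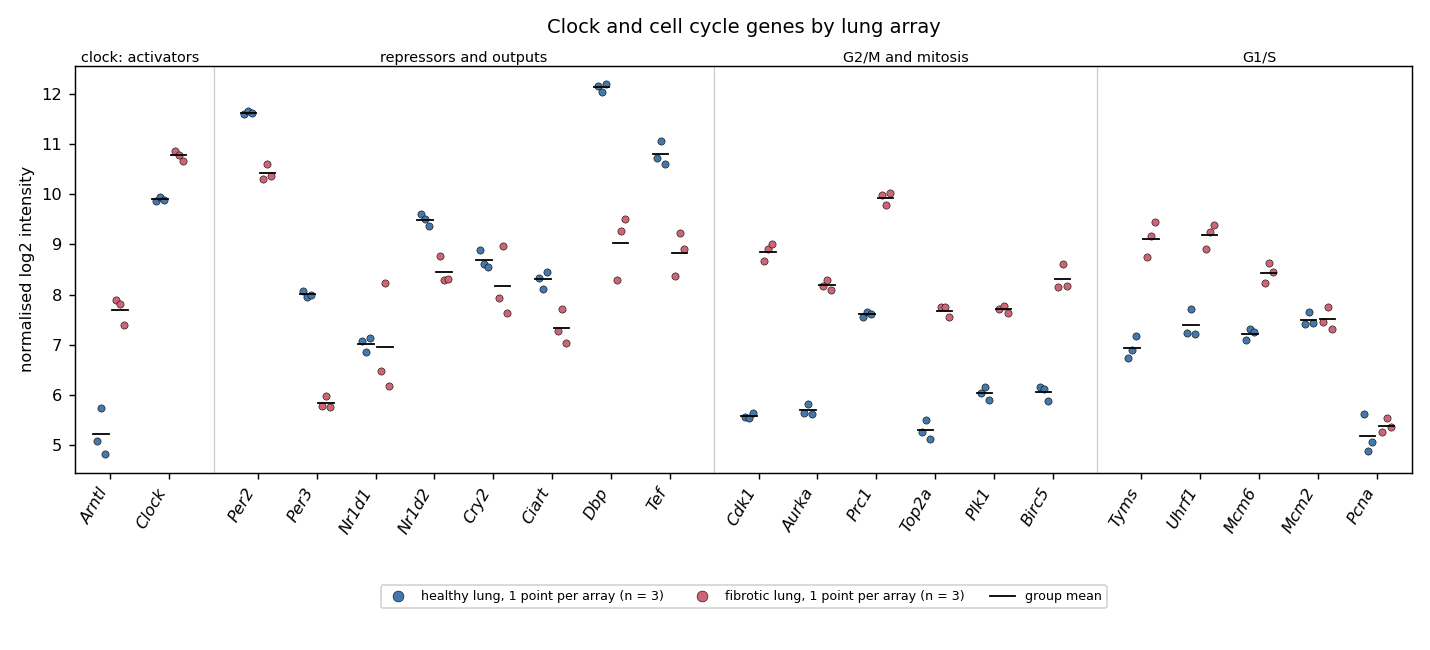
Normalised log2 intensity of 21 clock and cell cycle genes on each lung array, 1 point per array, with black bars for group means (n = 3). The activators Arntl and Clock lie higher and Dbp, Tef, Per2 and Per3 lower in fibrotic lung, and the 6 G2/M genes shown lie higher without overlap, whereas Mcm2 and Pcna overlap.

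Immediate early genes, which stress and handling of tissue induce within minutes, went 2 higher and 7 lower of 18 (median -0.17; 3 and 5, median 0.19, with a common median; 5 and 3, median 0.37, with the processed intensities; 4 lower without healthy 1, healthy 2, fibrotic 1 or fibrotic 3). Jund and Jun changed by -2.09 ± 0.25 and -1.18 ± 0.14 and the flow-induced endothelial factor Klf2 by -1.48 ± 0.19, whereas Fos read 11.05, 10.73 and 10.31 on the healthy arrays and 10.59, 10.62 and 10.09 on the fibrotic arrays, with overlap (-0.26 ± 0.24, adjusted p = 0.409).

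Lysosomal genes rose, 16 higher and 1 lower of 29 (median 0.60). Lgmn, an asparagine-specific protease, went from 10.00, 10.05 and 10.46 to 12.97, 12.57 and 12.88 (2.63 ± 0.18, adjusted p = 0.000288), and the cathepsin gene Ctsl changed by 2.36 ± 0.26. Lamp1, a membrane protein of all lysosomes, did not pass (-0.08 ± 0.14, adjusted p = 0.697). Of 20 sterol and fatty acid synthesis genes, 7 were higher and 1 lower (median 0.36). The 7 that rose, and the 1 that fell, Sc5d, named after its values were seen, belong to the cholesterol branch: Cyp51 went from 6.93, 6.83 and 7.15 to 9.52, 10.24 and 9.23, and Sqle, Nsdhl and Fdps changed by 1.56 ± 0.17, 2.53 ± 0.30 and 1.40 ± 0.18, while the fatty acid synthase gene Fasn changed by 0.03 ± 0.35, adjusted p = 0.956.

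Genes of the endoplasmic reticulum and its stress response went 11 higher and 4 lower of 23 (median 0.58; 14 higher and 0 lower with a common median, 18 and 0 with the processed intensities; 2 lower without healthy 1, fibrotic 1 or fibrotic 2). Sdf2l1 and calreticulin, Calr, rose by 2.07 ± 0.26 and 1.63 ± 0.23. Hspa5, the main chaperone, rose by 0.58 ± 0.13, adjusted p = 0.0119, and another chaperone, Hsp90b1, changed by -0.72 ± 0.11, adjusted p = 0.00343. Ddit3 and Atf3, the stress factors downstream, did not pass (0.18 ± 0.17, adjusted p = 0.439, and 0.62 ± 0.53, adjusted p = 0.389). Of 19 glycolysis and hypoxia genes, 8 were higher and 2 lower (median 0.54), with changes of 1.41 ± 0.18 for the glucose transporter Slc2a1, 1.15 ± 0.13 for Pgk1 and 1.20 ± 0.15 for Pfkp.

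Wnt ligands and modulators went 6 higher and 4 lower of 18 (median 0.10; 8 and 2 with a common median, 10 and 2 with the processed intensities). Wnt7b, an epithelial ligand, and Wnt4 rose by 1.91 ± 0.31 and 1.64 ± 0.29, and the secreted antagonist gene Sfrp1 went from 7.87, 8.84 and 7.78 to 9.83, 9.88 and 10.35 (1.85 ± 0.31, adjusted p = 0.00403). Axin2, a target of the canonical pathway, fell, from 9.37, 9.33 and 9.16 to 8.13, 7.82 and 7.79 (-1.38 ± 0.15, adjusted p = 0.00098), and the receptor gene Fzd2 changed by -1.78 ± 0.42. Among mesothelial genes, 3 of 8 were higher and 1 was lower (median 0.11, and -0.29 without healthy 1). Msln and Upk1b rose by 1.91 ± 0.39 and 1.93 ± 0.40, and each was lowest on healthy 1, while Upk3b overlapped (0.20 ± 0.41, adjusted p = 0.715).

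Genes of other tissues that a dissected lung can hold moved as follows, and their part in the results above was not tested except where values without an array are given. Of 7 adipocyte genes, 5 were lower and 0 higher (2 lower without healthy 2, and 3 without fibrotic 1 or fibrotic 2). Adipoq, adiponectin, read 7.92, 10.58 and 10.44 on the healthy arrays and 4.99, 5.33 and 7.60 on the fibrotic arrays, a change of -3.67 ± 0.91, adjusted p = 0.0182 that was -4.54 without healthy 1 and -4.49 without fibrotic 3 and lost its call without healthy 2, fibrotic 1 or fibrotic 2 (adjusted p = 0.0558, 0.0638 and 0.067). Slc7a10, an amino acid transporter also found in adipocytes, changed by -4.12 ± 0.25, adjusted p = 0.000238. It read 9.70, 9.56 and 9.74 on the healthy arrays, closer together than Adipoq, and 5.15, 5.39 and 6.11 on the fibrotic arrays. Thrsp, a lipogenic gene of fat and liver, was at least 14.5-fold lower, with levels of 6.10, 9.93 and 10.34 on the healthy arrays, and its call held without healthy 1 (fitted change -5.45, adjusted p = 0.000643) or healthy 3 (-3.32, 0.0278) and was lost without any other array. Acaa1b and Asgr1, genes of liver, were highest on healthy 3, at 8.90, 8.23 and 11.75 and 7.50, 7.31 and 10.67 on the healthy arrays. Their fitted changes of -3.97 ± 0.83 and -3.71 ± 0.84 were -2.91 and -2.62 without healthy 3 and -4.67 and -4.30 without healthy 2, and Asgr1 was at least 11.8-fold lower with all arrays.

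For heart muscle, 0 of 14 genes were lower with all arrays and 11 without healthy 3, where the median was -2.64 in place of -0.79 (and 0.52 without healthy 2). At an unadjusted p under 0.05, limma gave 0 lower with all arrays. For skeletal muscle 0 of 9 genes were lower with all arrays (0 at an unadjusted p under 0.05) and 3 without healthy 3. Of 8 mast cell, basophil and eosinophil genes, 1 was lower, the receptor gene Kit (-1.37 ± 0.15, adjusted p = 0.000997), which other lung cells also express. Of 4 thyroid and thymus genes, 2 were higher: Slc26a4, an anion exchanger of thyroid and of inflamed airway, changed by 2.75 ± 0.36, adjusted p = 0.00181, and thyroglobulin, Tg, was at least 1.89-fold higher. Of 5 nerve genes, 1 was lower, Cnp (-1.53 ± 0.18, adjusted p = 0.0014). In limma's fit over the 6 lung arrays, 0 of 7 kidney tubule genes and 0 of 4 cartilage genes passed (0 and 1 at an unadjusted p under 0.05). With all 11 arrays of the series in the fit, 1 cartilage gene was lower, and in the common-median and processed scalings 1 and 2 kidney tubule genes were higher.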

How the data were processed

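Per the labels' protocols, lung RNA was isolated with Trizol and its quality read on a Bioanalyzer before biotin-labelled cRNA was made by an Ambion MessageAmp kit, and the submitters' processing notes name GenomeStudio 5.0. For each of 45281 probes, the authors deposited an unnormalised intensity and a detection p-value against negative control beads. The authors also deposited processed intensities, which follow the raw ones linearly on each lung array (r = 1), so they are linear, not centred on genes, and have 1 scale per array. Their medians were 10.9, 10.9 and 10.6 in the healthy and 18.6, 24.7 and 16.4 in the fibrotic lungs. The sources used here give no slide or scan date, so neither was tested as a batch.

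From the raw intensities of the 6 lung arrays, neqc (limma 3.58.1, R 4.3.3) removed background, inferring the control beads from detection p-values, added an offset of 16 and equalised the quantiles. Of the probes, 34885 had 1 gene symbol, 18 several and 10378 none, and those of the last 2 kinds were not named. Symbols were checked against the RefSeq table, which held 34807 of the probes, and 0 changed. Each gene was read from its detected probe with the highest mean, since 4781 genes had several, and 203 called genes had another probe called in the opposite direction. Groups were compared with lmFit and eBayes (4 residual and 2.89 prior degrees of freedom) and Benjamini-Hochberg adjusted p-values over all 12105 genes. For bounds, the dimmer group's level on each array is the array's lowest detected level or, where brighter, the probe's own. Promoter sequences are RefSeq's.

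The naming rule gives the 15 largest rises and 15 largest falls among called genes without overlap, passing over names of clones or predicted genes. It then adds a core of each list whatever its values and the 5 other members with the smallest p. The text names only part of the genes that this rule gives. The members and lists were chosen with earlier results of these data known, so list counts are descriptions, and no list was tested.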

Additional observations from a re-analysis of the deposited data

How the results depend on the processing

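The count of changed genes, 4981, lay between 3573 and 4845 when 1 array was left out, with 1838 to 2339 higher and 1735 to 2569 lower. Scaling moved the direction of the calls most: 4107 genes were higher and 1335 lower when arrays were brought to a common median, and 6039 and 829 in the authors' processed intensities. With every probe tested by itself, 7982 of 19178 probes passed, 4331 of them higher. No background correction, a fit over all 11 arrays, a stricter detection filter, no filter, the mean of all detected probes, a trended robust prior, array weights and leaving out healthy 3 and fibrotic 3 together each kept these 3 counts within 1.5 times. Over the 430 genes that the naming rule gives and these settings, 6450 values stayed on their side of the threshold. Of these, the values of called genes also kept their direction. A further 205 lost the call, 179 gained one and 7, all of called genes, changed sign. Sign changes of genes that were not called were not counted. The 7 sign changes counted were small falls in the main fit. In the processed intensities Abca3 was at 0.16, Kdr at 0.075, Sftpc at 0.10, Sod1 at 0.055 and Zfp36 at 0.029, below the median of all genes there. With the mean of all probes Bmp4 was at 0.067 and Tkt at 0.20, and another probe of Bmp4 was called in the opposite direction. The cause of the sign changes was not tested. No paired analysis was possible because the labels number the lungs by mouse and give no number that healthy and fibrotic mice share. Signal over background limits 242 called genes that were above background on no healthy array and 141 on no fibrotic array, for which folds are bounds, and with 3 arrays a group an exact permutation test of a single gene cannot give a p under 0.1.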
